A study of Mus musculus with 12 samples.

Results

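The data described here are the transcript counts of 10 heat shock chaperone genes in nuclei of mouse liver, of hepatocytes just isolated from that liver and of the same hepatocytes after culture. The genes were given by name: Hspa1a, Hspa1b, Hspa8, Hsph1, Dnajb1, Hsp90aa1, Hsp90ab1, Hspb1, Hspd1 and Hspe1, which are 10 of the 32285 genes of the deposited matrices. The study sequenced RNA from single nuclei of 8 wild-type mice, named as C57BL6J in the sample labels and as C57BL/6NTac males in the methods. Each mouse gave 3 samples, so that there were 24 samples with 8 of each type. Liver was a lobe that was tied off and snap-frozen while the anaesthetised mouse was being perfused, after the warmed calcium-free buffer had passed and before collagenase. That buffer was kept above body temperature to make up for heat loss. Cell Suspension was the preparation obtained from the rest of the liver by collagenase perfusion, filtering and slow centrifugation. Primary Hepatocytes were cells of that preparation kept for 24 hours on collagen in low-serum medium with dexamethasone and insulin, then detached with trypsin. Liver was thus not untouched tissue, since it shared the anaesthesia and the first perfusion with the other types, and Primary Hepatocytes differed from Cell Suspension in attachment, medium, time and detachment together.

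Molecular chaperones bind unfolded or newly made proteins and keep them from aggregating. Hsp70 proteins grip exposed hydrophobic stretches in a cycle driven by ATP, J-domain partners start that cycle and Hsp110 proteins close it by exchanging the nucleotide, while Hsp90 proteins finish the folding of kinases and steroid receptors, among them the glucocorticoid receptor of hepatocytes. When unfolded proteins accumulate, the heat shock factor HSF1 is released from chaperones, binds inverted repeats of the letters GAA in promoters and raises the transcription of many chaperone genes within minutes. Of the genes described here, Hspa8 and Hsp90ab1 are known as the constitutive forms and Hspa1a, Hspa1b, Hsp90aa1, Dnajb1, Hsph1 and Hspb1 as more strongly heat-inducible forms. Hspd1 and Hspe1 encode the chaperonin of the mitochondrial matrix and its lid, so the name cytosolic, under which the genes were gathered, does not hold for those.

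The upstream sequences of the inducible genes are shown first, because HSF1 acts on them and because 2 of the genes share theirs. Start sites, coordinates and letters are those of RefSeq on GRCm38.p6, and each window holds the 250 bases before a start site. A window was found for 7 of the 10 genes, and Hspa8, Hsp90aa1 and Hsp90ab1 had none. Capitals mark the letters GAANNTTC or TTCNNGAA, the shortest form of the repeat, searched on both strands with overlapping matches kept.
Hspa1a, chr17:34972157-34972406, minus strand: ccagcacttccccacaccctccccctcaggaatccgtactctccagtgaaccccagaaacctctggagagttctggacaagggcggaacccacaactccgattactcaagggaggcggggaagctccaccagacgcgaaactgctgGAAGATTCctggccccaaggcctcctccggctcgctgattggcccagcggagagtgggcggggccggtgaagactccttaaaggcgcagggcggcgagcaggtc
Hspa1b, chr17:34959239-34959488, minus strand: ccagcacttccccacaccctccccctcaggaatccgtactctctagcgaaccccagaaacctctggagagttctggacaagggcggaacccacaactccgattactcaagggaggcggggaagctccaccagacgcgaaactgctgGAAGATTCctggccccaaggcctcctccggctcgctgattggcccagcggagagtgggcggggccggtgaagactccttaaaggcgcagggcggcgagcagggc
Hspb1, chr5:135887669-135887918, plus strand: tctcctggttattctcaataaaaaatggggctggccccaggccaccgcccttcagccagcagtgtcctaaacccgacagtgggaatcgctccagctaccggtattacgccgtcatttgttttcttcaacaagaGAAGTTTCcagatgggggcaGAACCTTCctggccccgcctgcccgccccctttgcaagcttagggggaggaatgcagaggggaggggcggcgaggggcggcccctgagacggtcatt
Hsph1, from the window chr5:149636316-149636565, minus strand: tctTTCTCGAAggc
Hspd1, from the window chr1:55087933-55088182, minus strand: gccTTCCGGAAGGTTCTAGAAcgg
Hspe1, from the window chr1:55087898-55088147, plus strand: ccgTTCTAGAACCTTCCGGAAggc
The Hspa1a and Hspa1b windows had the same base at 247 of 250 positions, with the repeat beginning 104 bases before the start site in each. The Hspb1 window held the repeat at 117 and at 97 bases, and the Hsph1 window at 54 bases. Hspd1 and Hspe1 lie head to head on chromosome 1 and their printed windows overlap, so that 1 stretch of DNA with 3 overlapping matches was read once on each strand. That stretch also held the longer form with another unit, GAANNTTCNNGAA or TTCNNGAANNTTC. The windows of Dnajb1 did not contain these letters. Nor did the other window of Hspd1, chr1:55088244-55088493, which lies directly before the annotated gene. In the printed Hspd1 window all 250 bases lay in annotated exons, as they did in that of Hspe1. For comparison, 12.8% of the 32851 windows of this length in the same table held at least 1 copy of the short form and 0.47% the longer form. A match describes the letters and is not a measured binding site.

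Members were found in the spliced, unspliced and ambiguous rows of the matrices, and these were added. Values below are counts per 1000000 (CPM), that is, unique molecular identifiers (UMIs) of the gene for each 1000000 UMIs of all genes in the nuclei summed for a sample. Levels per sample of hepatocyte, endothelial, Kupffer and stellate nuclei are scaled by edgeR's TMM factors, and those of marker lists, other clusters, single nuclei, lobule parts and pooled nuclei are not, so the scales are not to be compared. The deposited table of nuclei holds 53467 nuclei, of which 42467 were placed with hepatocytes and 5435 with endothelial cells. Summed hepatocyte nuclei held 6860168 to 29018248 UMIs in a Liver sample, 2065229 to 17389720 in Cell Suspension and 9596129 to 20300379 in Primary Hepatocytes. All 10 genes of the hepatocyte marker list, such as Alb and Apob, were found in hepatocyte nuclei of every type, with a summed median of 13619 CPM in Liver, 17791 CPM after isolation and 4539 CPM after culture. The endothelial list came to medians of 49.8, 70.8 and 134 CPM and the stellate list to 36.5, 33.5 and 174 CPM in the same nuclei. Their part in the changes of the chaperone genes was not tested. The 3 types were spread over 6 pools of 4 samples, of which 2 held both Liver and Primary Hepatocytes, and 676 cell barcodes occurred in more than 1 pool. The samples of mouse 8 stood apart in several chaperone genes and the Primary Hepatocytes sample of mouse 6 stood apart in Hspa1a and Hspa1b, so results that rest on them are given with and without them. Without the TMM factors the median gene moved by -0.14 on the log2 scale from Liver to Cell Suspension, by 0.69 from Cell Suspension to Primary Hepatocytes and by 0.57 from Liver to Primary Hepatocytes, and changes of TMM-scaled levels below are relative to that shift.

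In hepatocyte nuclei, isolation went with higher levels of Dnajb1, Hspb1, Hspa8 and Hsp90aa1 and, less so, of Hspe1 and Hspd1. Culture went with a further rise of Hspb1 and Hsp90aa1, a rise of Hsp90ab1 and a fall of Dnajb1, Hspa8, Hspe1 and Hspd1. The rises of Hspe1 and Hspd1 on isolation did not pass the test with spliced UMIs alone. The fall of Hspd1 in culture did not pass when scaled to totals alone. From Liver to Cell Suspension, 6 of the 10 genes rose and none fell by the quasi-likelihood test of edgeR (Benjamini-Hochberg adjusted), where 7.69% of the 26521 genes tested rose and 13.8% fell. The median log2 fold change was 1.34 over the 10 genes and 0.01 over all genes tested. From Cell Suspension to Primary Hepatocytes, 3 rose and 4 fell, against 27.6% and 24% of all genes. There the median was 0.51 over the 10 genes and 0.01 over all genes. It lies between Hsph1 at 0.11 and Hsp90aa1 at 0.91 and depends on single samples. Without the Primary Hepatocytes sample of mouse 6, Hspa1a and Hspa1b turned negative in this comparison. Without mouse 8, Hsph1 was at 1.34. From Liver to Primary Hepatocytes, 6 rose and 1 fell, against 27.4% and 26.7% of all genes, with medians of 1.26 and 0.04. Scaled to totals alone, the shares of all genes higher and lower were 4.8% and 21.2% on isolation, where 6 of the 10 genes rose and none fell. They were 47.4% and 12% from Cell Suspension to Primary Hepatocytes, where 5 rose and 3 fell, and 45.9% and 16% from Liver to Primary Hepatocytes, where 7 rose and 1 fell. The 3 comparisons share samples and are not independent of each other. All 10 genes passed the count minimum in these nuclei. The shares of all genes depend on that minimum. Among 17120 genes kept by edgeR's expression filter, 2637 rose and 3117 fell on isolation. There 6371 rose and 5908 fell in culture, and 6240 rose and 5998 fell from Liver to Primary Hepatocytes.

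**Figure D1:**
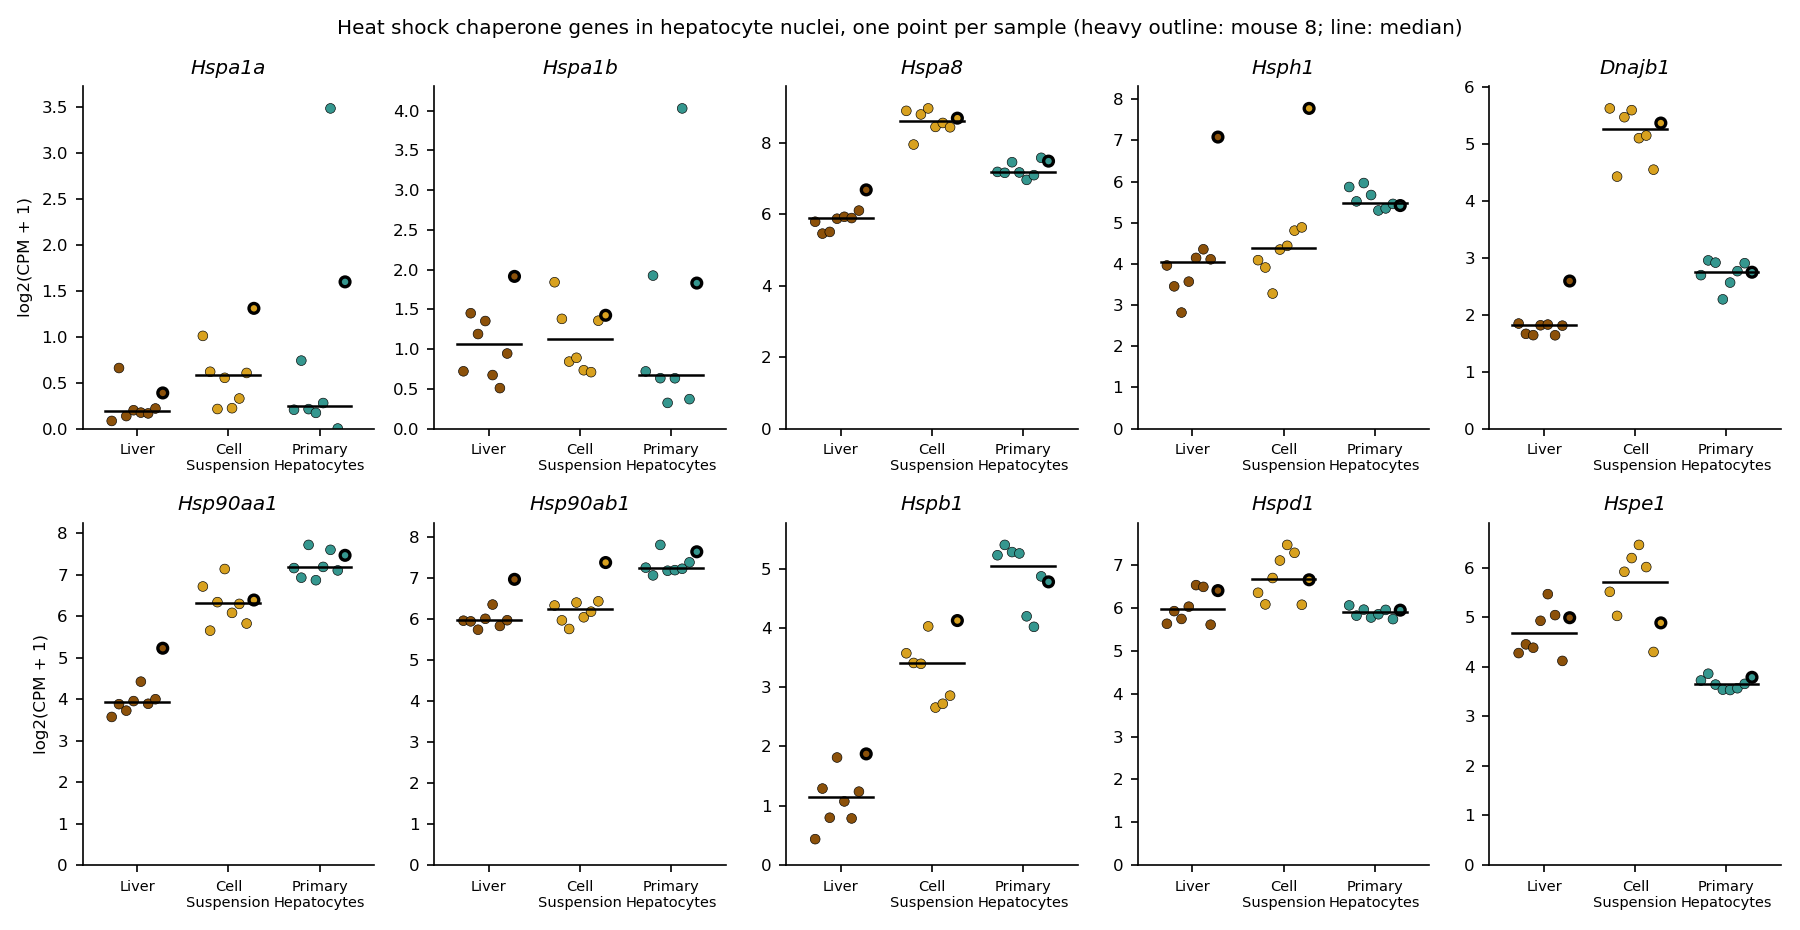
Level of each of the 10 genes in hepatocyte nuclei as log2(CPM + 1), with 1 point for each of the 8 samples of a type, a line at the median and a heavy outline for mouse 8. All Cell Suspension points lie above all Liver points for Hspa8, Dnajb1, Hsp90aa1 and Hspb1, while Hspa1a and Hspa1b stay low apart from a Primary Hepatocytes sample at 10.2 and 15.3 CPM, that of mouse 6. The share of all genes that separate in this way was not computed.

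Hspa8 (chr9:40800984-40810087), the constitutive Hsp70 that also strips clathrin from vesicles, had the clearest separation of TMM-scaled levels. In the 8 Liver samples it lay between 43.0 and 102 CPM with a median of 58.2, in Cell Suspension between 247 and 500 with a median of 395, and in Primary Hepatocytes between 124 and 191 with a median of 144. No sample of a type reached into the range of another, with Cell Suspension highest and Liver lowest, and mouse 8 was the highest of the Liver samples. Without the TMM factors, Cell Suspension and Primary Hepatocytes overlapped. For this and the separations of the other genes given below, the share of all genes that separate was not computed. The log2 fold change was 2.69 ± 0.16 (SE, n = 8 against 8, 6.46-fold, adjusted p = 3.67e-13) from Liver to Cell Suspension by the quasi-likelihood test of edgeR (Benjamini-Hochberg adjusted). It was -1.35 ± 0.16 (adjusted p = 1.12e-08) from Cell Suspension to Primary Hepatocytes and 1.34 ± 0.16 (adjusted p = 1.27e-08) from Liver to Primary Hepatocytes in the same fit.

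Dnajb1 (chr8:83608193-83612653), the J-domain partner that hands substrates to Hsp70, rose most on isolation. It lay between 2.11 and 5.02 CPM in Liver (median 2.51), between 20.5 and 48.3 in Cell Suspension (median 37.3) and between 3.82 and 6.74 in Primary Hepatocytes (median 5.75). Every Cell Suspension sample was above every sample of the other types, and Liver and Primary Hepatocytes overlapped through the Liver sample of mouse 8, since the next highest Liver sample was at 2.59 CPM. The log2 fold change was 3.78 ± 0.19 (13.7-fold, adjusted p = 6.88e-15) on isolation by the quasi-likelihood test of edgeR (Benjamini-Hochberg adjusted). It was -2.69 ± 0.18 (adjusted p = 9.24e-14) from Cell Suspension to Primary Hepatocytes, which left Dnajb1 1.09 ± 0.19 (adjusted p = 9.53e-06) above Liver.

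Hsph1 (chr5:149614287-149636376), an Hsp110 protein that exchanges the nucleotide of Hsp70, did not pass the test in any of the 3 comparisons. Its log2 fold changes were 0.63 ± 0.57 (adjusted p = 0.505), 0.11 ± 0.57 (adjusted p = 0.9) and 0.73 ± 0.56 (adjusted p = 0.293) in the order used above. The values of mouse 8 lay far outside those of the other mice. Hsph1 lay between 6.05 and 19.5 CPM in 7 Liver samples and at 135 in that of mouse 8, and between 8.72 and 28.6 in 7 Cell Suspension samples and at 219 in that of mouse 8. In Primary Hepatocytes all 8 samples lay between 38.4 and 61.5 CPM (median 43.9), and mouse 8 was at 41.8, inside that range. Apart from mouse 8, every Primary Hepatocytes sample was above every Liver and Cell Suspension sample. Without mouse 8 the log2 fold change was 0.49 ± 0.23 (adjusted p = 0.147) from Liver to Cell Suspension, 1.34 ± 0.23 (adjusted p = 1.18e-05) from Cell Suspension to Primary Hepatocytes and 1.83 ± 0.22 (adjusted p = 6.70e-08) from Liver to Primary Hepatocytes by the quasi-likelihood test of edgeR (Benjamini-Hochberg adjusted). With the mouse as a block and all 8 mice kept, the last 2 values were 1.10 ± 0.32 (adjusted p = 0.00540) and 1.65 ± 0.32 (adjusted p = 7.18e-05).

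A high Hsph1 in mouse 8 was also seen in nuclei placed with other cell types. These carried RNA of the hepatocyte marker list, in mouse 8 at 24.5% to 34.2% of its level in hepatocyte nuclei of the same sample, and its part in the values was not tested. In endothelial nuclei mouse 8 had 70.4 CPM in Liver, where the other 7 mice had 9.30 to 18.6, and 101 CPM in Cell Suspension, where the others had 0 to 20.2. In Kupffer nuclei, the resident macrophages of the liver, it had 67.8 against 5.35 to 24.5 CPM in Liver and 86.2 against 0 to 18.2 in Cell Suspension. In stellate nuclei, the vitamin A storing cells, it had 84.5 against 0 to 14.3 CPM in Liver and 129 against 0 to 17.9 in Cell Suspension. Mouse 8 was the highest sample in each of these cell types and in both sample types. The counts of 0 behind the lower ends allow up to 18.5 CPM in endothelial, 38.7 to 100 CPM in Kupffer and 36.9 to 90.6 CPM in stellate nuclei of Cell Suspension, so the Kupffer value of mouse 8 there lies within what the shallowest sample allows. In its hepatocyte nuclei of Liver, Hsph1 was high in each splicing state, with 15.9 CPM spliced, 66.9 unspliced and 51.9 ambiguous. Endothelial nuclei of Primary Hepatocytes had 56.7 CPM of Hsph1 in mouse 8, within the range of 33.1 to 98.6 CPM over the 8 mice.

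**Figure D2:**
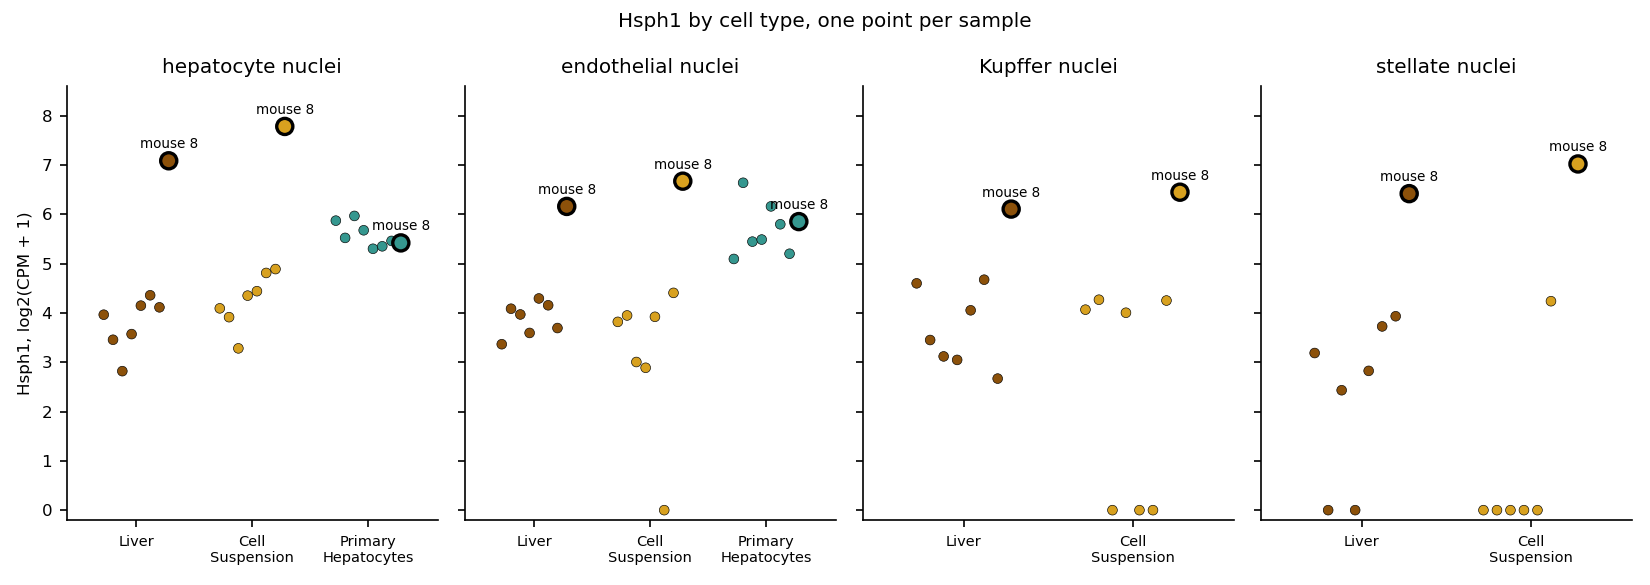
Level of Hsph1 as log2(CPM + 1) in hepatocyte, endothelial, Kupffer and stellate nuclei, with 1 point per sample, mouse 8 as a larger labelled point, and cultured Kupffer and stellate nuclei, which were not fitted, left out. Mouse 8 is the highest Liver and the highest Cell Suspension sample in each cell type, as at 135 and 219 CPM in hepatocyte nuclei, and lies among the others in Primary Hepatocytes.

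Of the Hsp90 genes, Hsp90aa1 rose at both steps and Hsp90ab1 rose in culture. Hsp90aa1 (chr12:110690605-110702728), the inducible form, lay between 10.9 and 36.5 CPM in Liver (median 14.2), between 49.3 and 140 in Cell Suspension (median 78.9) and between 116 and 210 in Primary Hepatocytes (median 144). Liver lay below both other types in every sample, and 5 of the 8 Primary Hepatocytes samples were above all Cell Suspension samples. The log2 fold change was 2.27 ± 0.22 (4.83-fold, adjusted p = 6.25e-09) on isolation, 0.91 ± 0.21 (adjusted p = 5.52e-04) from Cell Suspension to Primary Hepatocytes and 3.18 ± 0.23 (9.08-fold, adjusted p = 4.23e-13) from Liver to Primary Hepatocytes by the quasi-likelihood test of edgeR (Benjamini-Hochberg adjusted). Hsp90ab1 (chr17:45567775-45573271), the constitutive form, lay between 52.4 and 124 CPM in Liver (median 61.5), between 53.1 and 165 in Cell Suspension (median 75.5) and between 133 and 223 in Primary Hepatocytes (median 150). Every Primary Hepatocytes sample was above every Liver sample, and of the Cell Suspension samples that of mouse 8 alone reached into the range of Primary Hepatocytes. Hsp90ab1 did not pass the test on isolation, at 0.25 ± 0.19 (adjusted p = 0.420), and rose by 0.98 ± 0.19 (adjusted p = 6.66e-05) from Cell Suspension to Primary Hepatocytes and by 1.23 ± 0.19 (adjusted p = 2.26e-06) from Liver to Primary Hepatocytes in the same edgeR fit. The difference in log2 fold change between these paralogues was not tested.

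Hspb1 (chr5:135887919-135889563), a small heat shock protein that holds unfolded proteins without ATP and binds actin, rose at both steps. It lay between 0.353 and 2.67 CPM in Liver (median 1.23), between 5.30 and 16.4 in Cell Suspension (median 9.56) and between 15.2 and 41.2 in Primary Hepatocytes (median 32.3). No Liver sample reached the other types, and 7 of the 8 Primary Hepatocytes samples were above all Cell Suspension samples. The log2 fold change was 2.96 ± 0.32 (7.76-fold, adjusted p = 3.72e-08), then 1.58 ± 0.27 (adjusted p = 1.13e-05), and 4.53 ± 0.32 (23.1-fold, adjusted p = 2.10e-13) from Liver to Primary Hepatocytes by the quasi-likelihood test of edgeR (Benjamini-Hochberg adjusted).

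The mitochondrial chaperonin pair moved up on isolation and down in culture. Hspd1 (chr1:55077835-55088243), the chaperonin itself, lay between 47.9 and 91.8 CPM in Liver (median 62.2), between 66.6 and 177 in Cell Suspension (median 102) and between 52.6 and 65.9 in Primary Hepatocytes (median 58.9). Every Cell Suspension sample was above every Primary Hepatocytes sample, which was not so without the TMM factors, and 5 of 8 were above all Liver samples. Its log2 fold change was 0.73 ± 0.18 (adjusted p = 0.00308), then -0.93 ± 0.18 (adjusted p = 5.48e-05), and -0.20 ± 0.18 (adjusted p = 0.368) from Liver to Primary Hepatocytes by the quasi-likelihood test of edgeR (Benjamini-Hochberg adjusted). Scaled to totals alone, the fall of Hspd1 in culture was -0.23 (adjusted p = 0.242) and did not pass. With counts thinned to the lowest sample total, neither Hspd1 (0.51, adjusted p = 0.209) nor Hspe1 (1.01, adjusted p = 0.209) passed on isolation. Hspe1 (chr1:55088132-55091307), the lid, lay between 16.4 and 43.3 CPM in Liver (median 25.2), between 18.7 and 87.3 in Cell Suspension (median 52.2) and between 10.6 and 13.5 in Primary Hepatocytes (median 11.6). Every Primary Hepatocytes sample was below every sample of the other types, which was not so without the TMM factors, and 5 of the 8 Cell Suspension samples were above all Liver samples. Its log2 fold change was 0.96 ± 0.22 (adjusted p = 0.00178), then -2.13 ± 0.23 (adjusted p = 3.05e-09), and -1.17 ± 0.23 (adjusted p = 4.73e-05) from Liver to Primary Hepatocytes in the same edgeR fit. The rise of both on isolation did not pass with spliced UMIs alone, where it was 0.22 for Hspd1 (adjusted p = 0.341) and 0.13 for Hspe1 (adjusted p = 0.704).

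**Figure D3:**
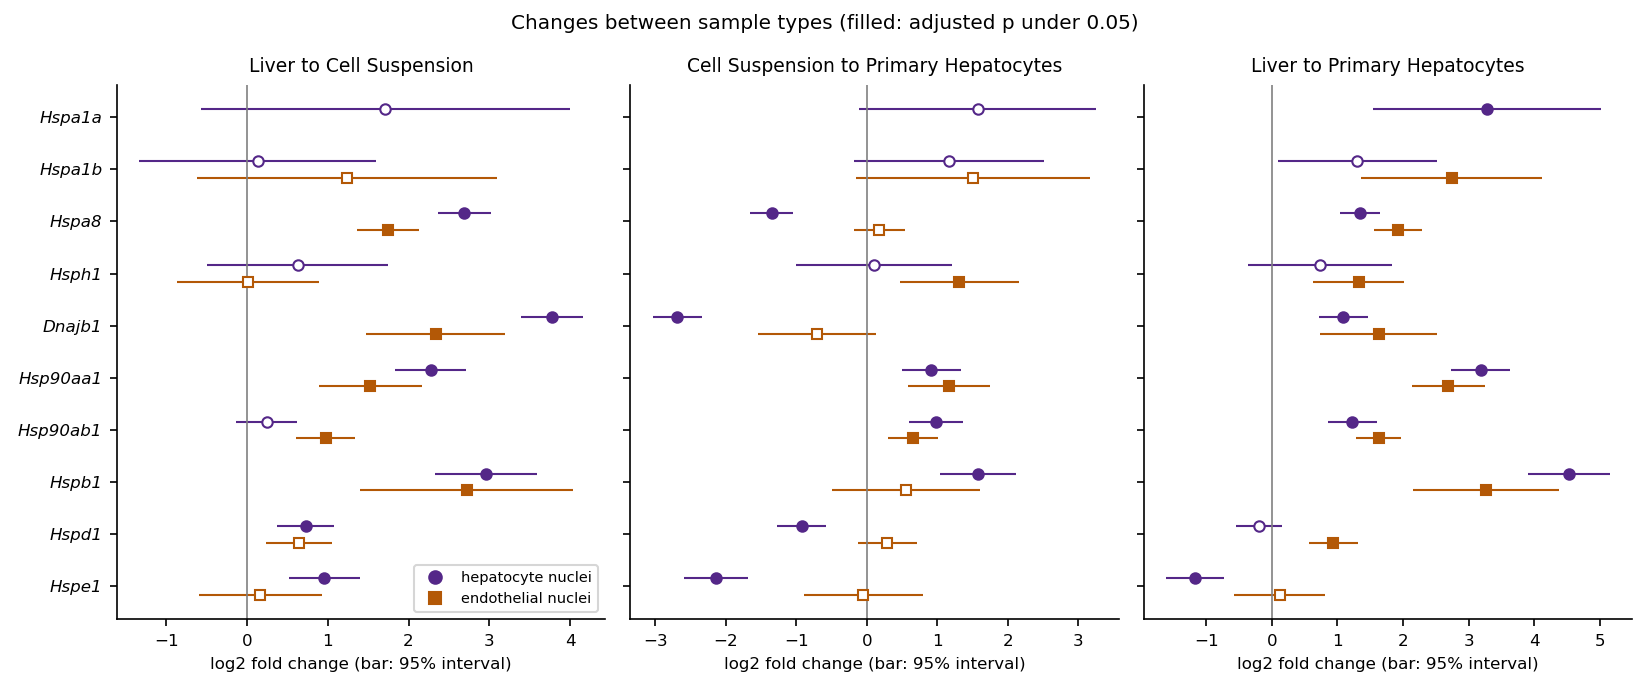
Log2 fold change of each gene between sample types in hepatocyte nuclei (circles) and endothelial nuclei (squares), with 95% intervals, filled where the adjusted p was under 0.05. On isolation Dnajb1 has the highest hepatocyte value at 3.78, and in culture Dnajb1, Hspe1, Hspa8 and Hspd1 lie below 0 in hepatocyte nuclei while no filled endothelial point does.

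Hspa1a (chr17:34969190-34972156) and Hspa1b (chr17:34956436-34959238), the strictly inducible Hsp70 genes, were nearly silent in all 3 types. Neither has an intron, and neither had an unspliced UMI. Hspa1a lay between 0.0588 and 0.578 CPM in Liver (median 0.138), between 0.159 and 1.47 in Cell Suspension (median 0.49) and between 0 and 10.2 in Primary Hepatocytes (median 0.185), where the count of 0 in mouse 7 allows up to 0.175 CPM by counting error alone. Hspa1b lay between 0.422 and 2.77 CPM in Liver (median 1.10), between 0.635 and 2.58 in Cell Suspension (median 1.21) and between 0.25 and 15.3 in Primary Hepatocytes (median 0.599). The ranges of the 3 types overlapped for both genes, and the highest value of each belonged to the Primary Hepatocytes sample of mouse 6. On isolation the log2 fold change was 1.71 ± 1.17 (adjusted p = 0.346) for Hspa1a and 0.13 ± 0.75 (adjusted p = 0.936) for Hspa1b by the quasi-likelihood test of edgeR (Benjamini-Hochberg adjusted). A rise of the size seen for Dnajb1 was outside the 95% interval of Hspa1b, which ran from -1.33 to 1.6, and was inside that of Hspa1a, which ran from -0.57 to 4.0. From Cell Suspension to Primary Hepatocytes it was 1.57 ± 0.86 (adjusted p = 0.132) and 1.16 ± 0.69 (adjusted p = 0.166). Scaled to totals alone, these were 2.24 (adjusted p = 0.0250) and 1.84 (adjusted p = 0.0236) and passed. From Liver to Primary Hepatocytes Hspa1a passed at 3.28 ± 0.89 (adjusted p = 0.00215) and Hspa1b did not at 1.30 ± 0.62 (adjusted p = 0.0784). Without the Primary Hepatocytes sample of mouse 6 the change of Hspa1a was 1.53 ± 0.66 (adjusted p = 0.0514) and that of Hspa1b -0.02 ± 0.46 (adjusted p = 0.978). Without mouse 4, in contrast, Hspa1b passed at 1.63 (adjusted p = 0.0387). DESeq2 gave 1.74 (adjusted p = 0.0456) for Hspa1a on isolation and 1.42 (adjusted p = 0.0566) from Liver to Primary Hepatocytes, so that the first passed and the second did not. With the pool as a term the latter was 2.23 (adjusted p = 0.232), and with counts thinned to the lowest sample total 0.57 (adjusted p = 0.718). The transcripts of the pair share 63.8% of the 31-base words of Hspa1a, but none in their last 500 bases, the end that this assay reads.

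The few UMIs of Hspa1a and Hspa1b sat in few nuclei. Over all 53467 nuclei, 972 UMIs of the pair were found in 380 nuclei. The Primary Hepatocytes sample of mouse 6 held 438 of them in 26 nuclei, and 5 nuclei held 408 of those, or 93.2%. Across all samples, 12 nuclei had 5 or more UMIs of the pair, a limit set after the values were seen. Of these, 10 were in Primary Hepatocytes, and 8 of the 10 were in author cluster 17, of which 1271 nuclei were from Primary Hepatocytes. In those 1271 nuclei the 8 held 515 of the 550 UMIs of the pair. The 8 nuclei came from mouse 6 (5 nuclei), mouse 8 (2) and mouse 2 (1). Other chaperone genes were also high in the sum of these nuclei, unevenly so, with 1 to 271 UMIs of Hsp90aa1, 3 to 64 of Hspa8, 0 to 39 of Hspb1 and 0 to 6 of Dnajb1 in a nucleus. Hsp90aa1 was at 15581 CPM in the 8 nuclei and 256.4 in the other 1263, Hspa8 at 3013 and 109, Hspb1 at 1507 and 11, and Dnajb1 at 367 and 9.99. Bag3, which couples Hsp70 to small heat shock proteins and is a known HSF1 target, was at 643 and 71.6 CPM. Without mouse 6, the 3 nuclei left and the other 922 were at 18959 and 220.0 CPM of Hsp90aa1, 5501 and 102 of Hspa8, 3386 and 11.5 of Hspb1, 846 and 8.94 of Dnajb1 and 423 and 76.0 of Bag3. Of those 3 nuclei, 1 of mouse 8 held 185 of the 224 UMIs of Hsp90aa1 and 39 of the 40 of Hspb1. The others held 38 and 1 UMIs of Hsp90aa1 and 1 and 0 of Hspb1. The values of the selected nuclei are a description and carry no test.

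The pair was also found in author cluster 28, which the deposited table labels as biliary epithelial cells. The biliary list came to 3825 CPM there, the mesothelial list to 2361, the hepatocyte list to 1841 and the stellate list to 843. Its 157 Liver nuclei held 16 UMIs of Hspa1a and 15 of Hspa1b, or 30.4 and 28.5 CPM. Of these UMIs, 12 and 11 were in mice 3 and 8, and without the 9 nuclei of mouse 8 the values were 20.1 and 24.2 CPM. Over the 4 samples with at least 10 such nuclei the medians were 16.2 and 9.22 CPM. Hepatocyte nuclei of Liver held 20 and 135 UMIs of the genes in all, and endothelial nuclei of Liver 1 and 2. As a description over 24 samples, centred within each type, the genes whose level was most like the sum of Hspa1a and Hspa1b among 8601 genes were Mpzl3 (r = 0.787), Ppargc1a (r = 0.783), Gm12689 (r = 0.781), Chd9 (r = 0.735) and N4bp2 (r = 0.731). Without the Primary Hepatocytes sample of mouse 6 these were 0.592, 0.737, 0.46, 0.432 and 0.361. The points share their library and depth within a sample. For the other members r lay between -0.18 and 0.28, and without that sample between -0.25 and 0.41, the highest being Hspb1.

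After thinning to an equal depth, the share of nuclei with a UMI gave the same order of types as the summed levels for Hspa8, Dnajb1, Hsp90aa1 and Hspb1. This was also so for Hsp90ab1, Hsph1 and Hspe1. Each hepatocyte nucleus was thinned to 1000 UMIs, which left out 508 Liver, 474 Cell Suspension and 83 Primary Hepatocytes nuclei. The shares are thus scaled to totals without TMM factors, and the shift of the median gene is part of them. After thinning, Hspa8 was found in a mean of 6.46% of Liver nuclei, 28.6% of Cell Suspension nuclei and 18.3% of nuclei of Primary Hepatocytes, and before thinning in 34.7%, 60.5% and 62.9%. Dnajb1 was found in 0.303%, 3.13% and 0.694% after thinning and in 2.14%, 9.51% and 4.79% before. Hsp90aa1 and Hspb1 were found in still more nuclei after culture. Hsp90aa1 was found in 2.11%, 7.35% and 18.9% after thinning and in 12.3%, 23.0% and 64.8% before, and Hspb1 in 0.0752%, 0.788% and 3.29% and in 1.04%, 3.11% and 17%. For Hspa8, Dnajb1, Hsp90aa1 and Hspb1 each of the 3 comparisons after thinning passed. Their adjusted p ran from 4.24e-04 to 0.00133 by two-sided exact permutation tests over 8 against 8 samples, 30 tests in all. Hsp90ab1 was found in 7.54%, 7.97% and 20.3% after thinning. It passed in culture and from Liver to Primary Hepatocytes (adjusted p = 4.24e-04 each) and not on isolation (adjusted p = 0.749, exact permutation tests). Hsph1, at 2.79%, 3.79% and 6.33%, did not pass in any comparison. Such tests were run for the 10 genes alone and without the mouse, and no paired version was run. Hspd1 was found in 6.31%, 8.73% and 7.63% after thinning, an order that differs from that of its TMM-scaled levels, and neither its change on isolation (adjusted p = 0.0699) nor that in culture (adjusted p = 0.373) passed the exact permutation test. Scaled to totals alone, its levels had the order of the shares. There Primary Hepatocytes lay above Liver by 0.34 on the log2 scale, which did not pass (adjusted p = 0.0777, quasi-likelihood test of edgeR). Hspe1, at 2.24%, 3.51% and 1.69%, did not pass on isolation (adjusted p = 0.0639) and fell in culture (adjusted p = 0.00373, exact permutation test). No liver cell type is known to lack these genes, so no background share could be taken from 1, and RNA outside nuclei was read from barcodes with at most 100 UMIs instead. In those, Hspa8 lay between 87.5 and 231 CPM over the 6 pools (median 158), Hsp90aa1 between 16.3 and 133 (median 76.2), Dnajb1 between 2.04 and 24.7 (median 4.65) and Hspb1 between 0 and 33.5 (median 15.2). On the same scale, pooled hepatocyte nuclei of Liver and Cell Suspension held 53.6 and 334 CPM of Hspa8, 14.7 and 74.3 of Hsp90aa1, 2.32 and 31.5 of Dnajb1 and 1.10 and 8.47 of Hspb1. All 4 Liver values were below those medians, as were the Cell Suspension values of Hsp90aa1 and Hspb1. The pools differed widely, however. Hspb1 was at 0, 1.73 and 0 CPM in pools 1, 2 and 6 and at 28.6, 29.7 and 33.5 in pools 3, 4 and 5. Hsp90aa1 was at 16.3, 45.1 and 20.5 CPM and at 133, 133 and 107 in the same pools. Since the sample types were not spread evenly over the pools, a median over pools is not the level around nuclei of a given type. The part of such RNA in the levels of nuclei was not tested.

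Unspliced RNA still carries introns and is the younger fraction in a nucleus, so its share was compared between types. It was computed as unspliced UMIs over spliced and unspliced UMIs of a gene in samples with at least 20 of them, and 17 of 24 tests passed. These tests compare samples without the mouse and were run for these genes alone, so the count has no share of all genes beside it. A shift of the unspliced share common to most genes was thus not set apart from changes of these genes. With at least 100 UMIs, no Liver sample of Dnajb1 or Hspb1 was left, and 3 Cell Suspension samples of Hsph1. Their changes on isolation could then not be tested. The Hsp90 genes went opposite ways. In Hsp90aa1 the unspliced share lay between 17.2% and 33.3% in Liver and between 35.8% and 58.5% in Cell Suspension, and the samples did not overlap. Its mean was 21.1% ± 5.54 (SD, n = 8) in Liver, 47.7% ± 8.71 in Cell Suspension (adjusted p = 9.32e-04, two-sided exact permutation test) and 34.2% in Primary Hepatocytes. In Hsp90ab1 it lay between 24.3% and 38.1% in Liver and between 5.91% and 16.5% in Cell Suspension, again without overlap. Its mean fell from 29.8% ± 4.83 (SD, n = 8) in Liver to 11.9% ± 4.12 in Cell Suspension (adjusted p = 9.32e-04, exact permutation test) and was 23.6% in Primary Hepatocytes. With unspliced UMIs alone Hsp90ab1 fell on isolation by 1.09 on the log2 scale (adjusted p = 5.50e-04, quasi-likelihood test of edgeR), whereas Hsp90aa1 rose by 3.74 and did not pass in culture (0.32, adjusted p = 0.254), and with spliced UMIs alone Hsp90ab1 was at 0.14 (adjusted p = 0.653).

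The unspliced share of Hspe1 rose from 58.2% ± 5.53 (SD, n = 8) in Liver to 71.1% ± 7.56 in Cell Suspension (adjusted p = 0.00678) and was 46.4% in Primary Hepatocytes (adjusted p = 9.32e-04 against Cell Suspension) by exact permutation tests. Hspd1 had 55.1% in Liver and 56.7% in Cell Suspension, which did not pass (adjusted p = 0.691, exact permutation test), and 44.4% in Primary Hepatocytes, below both (adjusted p = 0.00107 and 0.0128). The constitutive Hspa8 had a lower share in Cell Suspension, at 14%, than in Liver, at 19.6% (adjusted p = 0.00964, exact permutation test), or in Primary Hepatocytes, at 19.5% (adjusted p = 0.0115). Dnajb1 had 33.5%, 28.7% and 23.8%, and of its comparisons that of Liver with Primary Hepatocytes passed (adjusted p = 0.00107, exact permutation test). Hsph1 fell from 78.1% in Liver to 65.8% in Cell Suspension (adjusted p = 0.0172, exact permutation test) and was 69.3% in Primary Hepatocytes, lower than in Liver (adjusted p = 0.00678) and not separated from Cell Suspension (adjusted p = 0.472, exact permutation tests). Hspb1 reached 20 UMIs in 4 Liver samples, with means of 24.9%, 36.3% and 30.2%, and its fall from Cell Suspension to Primary Hepatocytes passed (adjusted p = 0.0208, exact permutation test). The smallest p that 8 against 8 samples allow is 1.55e-04.

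**Figure D4:**
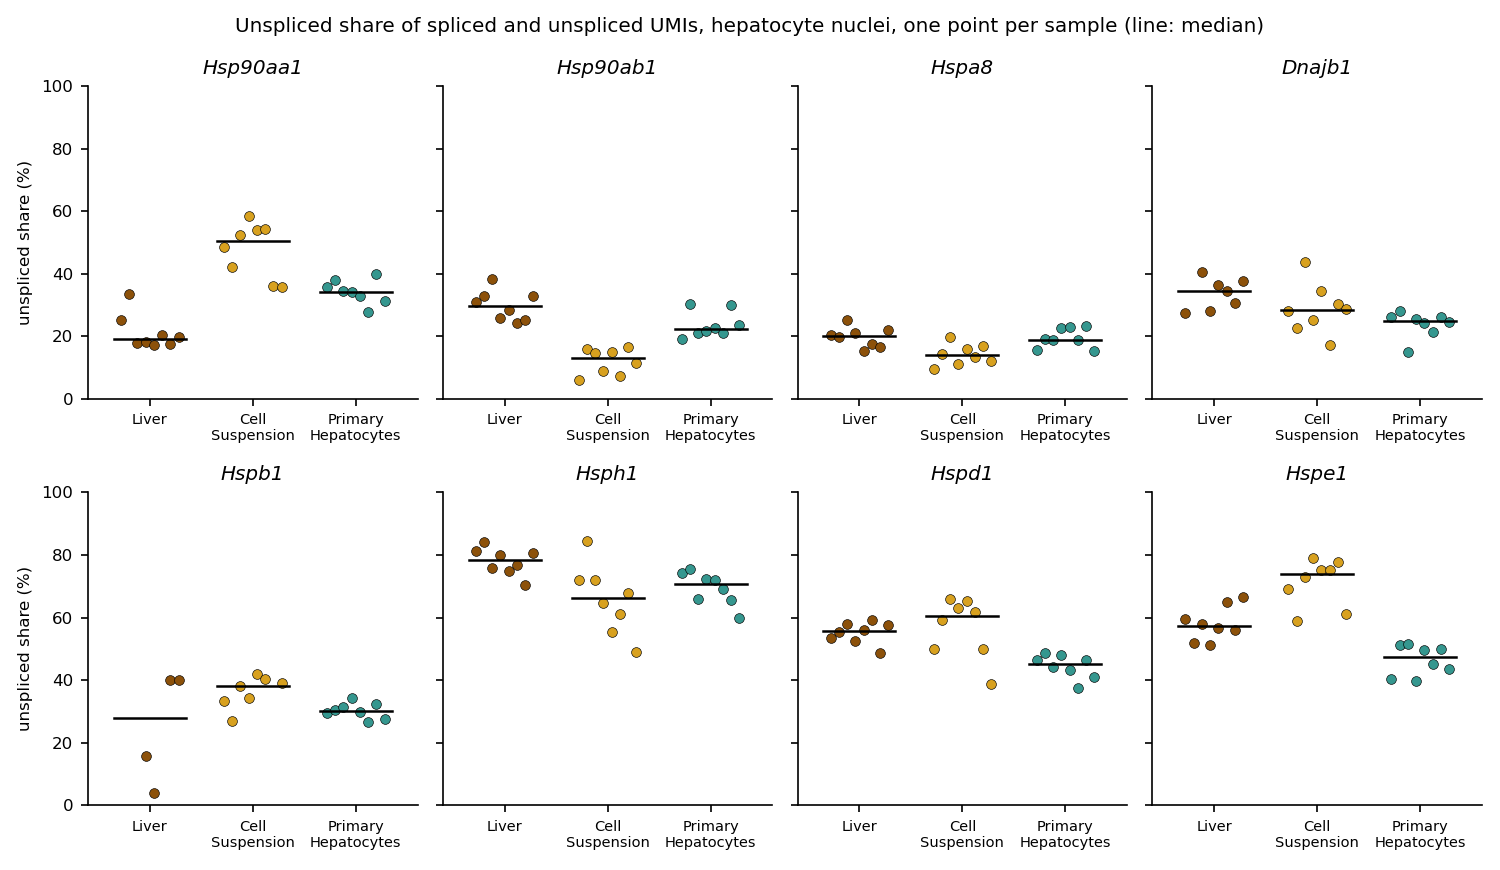
Unspliced share of spliced and unspliced UMIs in percent for 8 genes in hepatocyte nuclei, with 1 point per sample of at least 20 such UMIs and a line at the median. From Liver to Cell Suspension the points of Hsp90aa1 move up, from a mean of 21.1% to 47.7%, and those of Hsp90ab1 move down, from 29.8% to 11.9%.

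Endothelial nuclei, which were carried through the isolation and the culture, were compared in the same way. All samples had at least 10 such nuclei. The 12 endothelial markers were all found in each type, with medians of their summed level of 14582, 12717 and 6812 CPM. The hepatocyte marker list came to medians of 3033, 4043 and 3364 CPM in them, against 13619, 17791 and 4539 CPM in hepatocyte nuclei, and its part in the values below was not tested. Hspa1a stayed under the count minimum, with 1, 1 and 2 UMIs in the 3 types, which left 9 genes. From Liver to Cell Suspension 5 of the 9 rose and none fell by the quasi-likelihood test of edgeR (Benjamini-Hochberg adjusted), where 2.03% of the 18279 genes tested rose and 1.87% fell. The median log2 fold change was 1.24 over the 9 genes and -0.08 over all genes. From Cell Suspension to Primary Hepatocytes 3 rose and none fell, against 9.33% and 10.7% of all genes, with medians of 0.55 and 0.07. From Liver to Primary Hepatocytes 8 rose and none fell, against 15.4% and 18.4% of all genes, with medians of 1.63 and -0.01. Among the 8 was Hspa1b at 2.74 ± 0.70 (adjusted p = 0.00188, same edgeR fit). It had no UMI in 6 Liver, 6 Cell Suspension and 4 Primary Hepatocytes samples, so this value rests on few samples.

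Hspa8 in endothelial nuclei lay between 29.4 and 55.2 CPM in Liver (median 43.6), between 69.2 and 211 in Cell Suspension (median 154) and between 98.3 and 218 in Primary Hepatocytes (median 166). All Liver samples were below all others, and the ranges of Cell Suspension and Primary Hepatocytes overlapped. It rose by 1.75 ± 0.19 (adjusted p = 1.52e-08) on isolation and was at 0.18 ± 0.19 (adjusted p = 0.577) from Cell Suspension to Primary Hepatocytes by the quasi-likelihood test of edgeR (Benjamini-Hochberg adjusted). Hsp90ab1 lay between 37.8 and 73.8 CPM in Liver (median 54.5), between 70.2 and 154 in Cell Suspension (median 101) and between 80.4 and 229 in Primary Hepatocytes (median 168). Liver overlapped slightly with Cell Suspension and not with Primary Hepatocytes. Here Hsp90ab1 passed on isolation, with 0.98 ± 0.19 (adjusted p = 5.44e-04, same edgeR fit).

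Dnajb1 rose by 2.34 ± 0.44 (adjusted p = 4.76e-04) on isolation in endothelial nuclei, from a median of 1.84 to 11.5 CPM, by the quasi-likelihood test of edgeR (Benjamini-Hochberg adjusted). Its cultured median was 8.40 CPM, and the change from Cell Suspension, -0.71 ± 0.43, did not pass (adjusted p = 0.271). Hsp90aa1 rose by 1.53 ± 0.33 (adjusted p = 0.00234) and then by 1.16 ± 0.29 (adjusted p = 0.00275). Hspb1 rose by 2.72 ± 0.67 (adjusted p = 0.0106) on isolation, while without mouse 3 it was at 2.30 (adjusted p = 0.0759) and without mouse 5 at 2.55 (adjusted p = 0.0559). Hsph1 rose by 1.31 ± 0.43 (adjusted p = 0.0252) from Cell Suspension to Primary Hepatocytes, and, without mouse 8, by 2.16 ± 0.32 (adjusted p = 1.58e-06). Without mouse 2, 5 or 6 in turn its fold stayed at 1.22, 1.15 and 1.18 and did not pass (adjusted p = 0.0593, 0.0993 and 0.0687). The pair of the mitochondrial matrix did not pass on isolation, with 0.64 ± 0.21 (adjusted p = 0.0727; 0.0231 with DESeq2) for Hspd1 and 0.17 ± 0.39 (adjusted p = 0.883) for Hspe1.

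The difference between cell types was tested itself, as hepatocyte minus endothelial log2(CPM + 1) in each sample, with 30 two-sided exact permutation tests, of which 6 passed. The tests were run for the 10 genes alone, so this count has no share of all genes beside it. Hspa8 rose more in hepatocyte nuclei on isolation, by 0.97 (adjusted p = 0.00155, exact permutation test), and lost more in culture, with a difference of -1.44 (adjusted p = 0.00155). Dnajb1 rose more in hepatocyte nuclei on isolation, by 1.73 (adjusted p = 0.0334, exact permutation test). Hsp90ab1 was the reverse, with a change on isolation that was lower in hepatocyte than in endothelial nuclei by 0.70 (adjusted p = 0.0140, exact permutation test, coded as -0.70). Hspd1 fell relative to endothelial nuclei from Cell Suspension to Primary Hepatocytes, with a difference of -1.08 (adjusted p = 0.00350), and from Liver to Primary Hepatocytes, with -1.04 (adjusted p = 0.00155, exact permutation tests). These tests compare 8 with 8 samples without the mouse. Paired by mouse, none of the 30 passed the exact permutation test (9 at an unadjusted p under 0.05, lowest adjusted p = 0.0781, with 0.00781 the smallest p that 8 pairs allow), and the 6 differences kept their direction in 7 or 8 of 8 mice. For the other 24 the unpaired test did not pass, which does not show that the cell types were alike. With a pseudocount of 5, 10 passed.

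Kupffer and stellate nuclei could be compared from Liver to Cell Suspension, where 7 of the 10 genes passed the count minimum in each. Cultured samples were not part of these fits, although all 8 had at least 10 stellate nuclei and 3 had at least 10 Kupffer nuclei, and 1 Cell Suspension sample fell below 10 stellate nuclei. The 192 cultured stellate nuclei, pooled and with no test, held 139 CPM of Hsp90aa1, 114 of Hspa8 and 40.4 of Hsph1. In Kupffer nuclei 1 of the 7 genes rose and none fell, against 1.08% and 0.224% of the 13819 genes tested, with medians of 0.78 over the 7 genes and -0.17 over all genes. That gene was Hspa8, whose median went from 71.4 to 132 CPM, a log2 fold change of 1.18 ± 0.26 (adjusted p = 0.00813, quasi-likelihood test of edgeR). In stellate nuclei 3 of the 7 rose and none fell, against 0.903% and 2.29% of the 13516 genes tested, with medians of 1.06 and -0.37. These were Hspa8 at 1.92 ± 0.32 (adjusted p = 1.07e-04), Hsp90aa1 at 2.07 ± 0.50 (adjusted p = 0.0128) and Hsp90ab1 at 1.06 ± 0.31 (adjusted p = 0.0446, same test). The hepatocyte marker list had medians of 3830 and 4376 CPM in Kupffer nuclei and of 3384 and 4713 in stellate nuclei of the 2 types, and its part in these rises was not tested. In Liver, leukocytes other than Kupffer cells had 36.4 to 195 CPM of Hspa8 over the 8 samples (median 87.5) and 59.1 to 134 CPM of Hsp90ab1 (median 98.8).

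Summed over all nuclei, whatever their type, 6 genes rose and none fell from Liver to Cell Suspension, against 8.01% and 12.6% of the 27269 genes tested by the quasi-likelihood test of edgeR (Benjamini-Hochberg adjusted). From Cell Suspension to Primary Hepatocytes 3 rose and 4 fell, against 27.4% and 23.4%, and from Liver to Primary Hepatocytes 7 rose and 1 fell, against 28.6% and 27.1%. The median log2 fold changes of the 10 genes were 0.96, 0.66 and 1.44. In such sums the mix of cell types and the level within a type cannot be told apart.

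Along the liver lobule, 5 of the 10 genes were higher on the side of the central vein in Liver and 8 in Cell Suspension at an exact p under 0.05, where 14.6% of 22261 and 14.5% of 19824 genes with at least 10 UMIs were. Hepatocyte nuclei of each Liver and Cell Suspension sample were ranked by the ratio of pericentral list UMIs, such as Cyp2e1 and Glul, to periportal list UMIs, such as Cyp2f2 and Hal, and the first and the last of 3 equal parts were compared within each mouse. In Liver, Hsp90ab1 was higher on the pericentral side in 8 of 8 mice, with medians of 65.9 and 50.4 CPM, a mean log2 difference of 0.36 ± 0.17 (SD) and adjusted p = 0.0174 (two-sided exact paired permutation test, 20 tests). Hspb1 was likewise higher in 8 of 8, with medians of 2.02 and 0.506 CPM and a mean difference of 1.00 ± 0.75 (adjusted p = 0.0174, exact permutation test). Hspa1b (adjusted p = 0.0391), Hsph1 (adjusted p = 0.0284) and Hsp90aa1 (adjusted p = 0.0481) also passed the exact permutation test in Liver, with 7, 7 and 6 of 8 mice higher. With 2 parts in place of 3, Hsph1 and Hsp90aa1 did not pass in Liver (adjusted p = 0.168 and 0.225).

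In Cell Suspension, Hspa1a, Hspa1b, Hspa8, Dnajb1, Hsp90aa1, Hspb1 and Hspd1 were each higher on the pericentral side in 8 of 8 mice (adjusted p = 0.0174 each, exact paired permutation test, from the smallest p of 0.00781 that 8 pairs allow). For Hspa1a this rests on single UMIs, with 1 pericentral UMI against 0 in mice 3, 5, 6 and 7 and 2 against 2 in mouse 4, where the smaller pericentral total sets the order. Hspa1b had 1 UMI against 0 in mouse 7 and 2 against 3 in mouse 6. Dnajb1 had medians of 44.5 CPM pericentral and 17.1 periportal, with a mean log2 difference of 1.39 ± 0.65 (SD). Hspb1 had 14 and 3.94 CPM with 1.95 ± 0.57, Hsp90aa1 had 78.6 and 49.8 CPM with 0.75 ± 0.31, and Hspa8 had 374 and 271 CPM with 0.69 ± 0.36. Hsp90ab1 was higher in 7 of 8 mice (adjusted p = 0.0284, exact permutation test), while Hsph1 and Hspe1 did not pass (adjusted p = 0.584 and 0.304). Of all genes with at least 10 CPM, 14.9% were higher on the pericentral side in all mice in Liver and 11% in Cell Suspension, with median differences of -0.011 and -0.038. Pericentral nuclei held fewer UMIs in Cell Suspension, with a median ratio of totals of 0.727 against 0.916 in Liver, and the part of this in the differences was not tested. The difference was larger in Cell Suspension than in Liver in 8 of 8 mice for Hspa8, by a mean of 0.55, and in 7 of 8 for Hsp90aa1 and Hspd1, yet none of the 10 genes passed in this comparison (lowest adjusted p = 0.0521, exact paired permutation test).

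**Figure D5:**
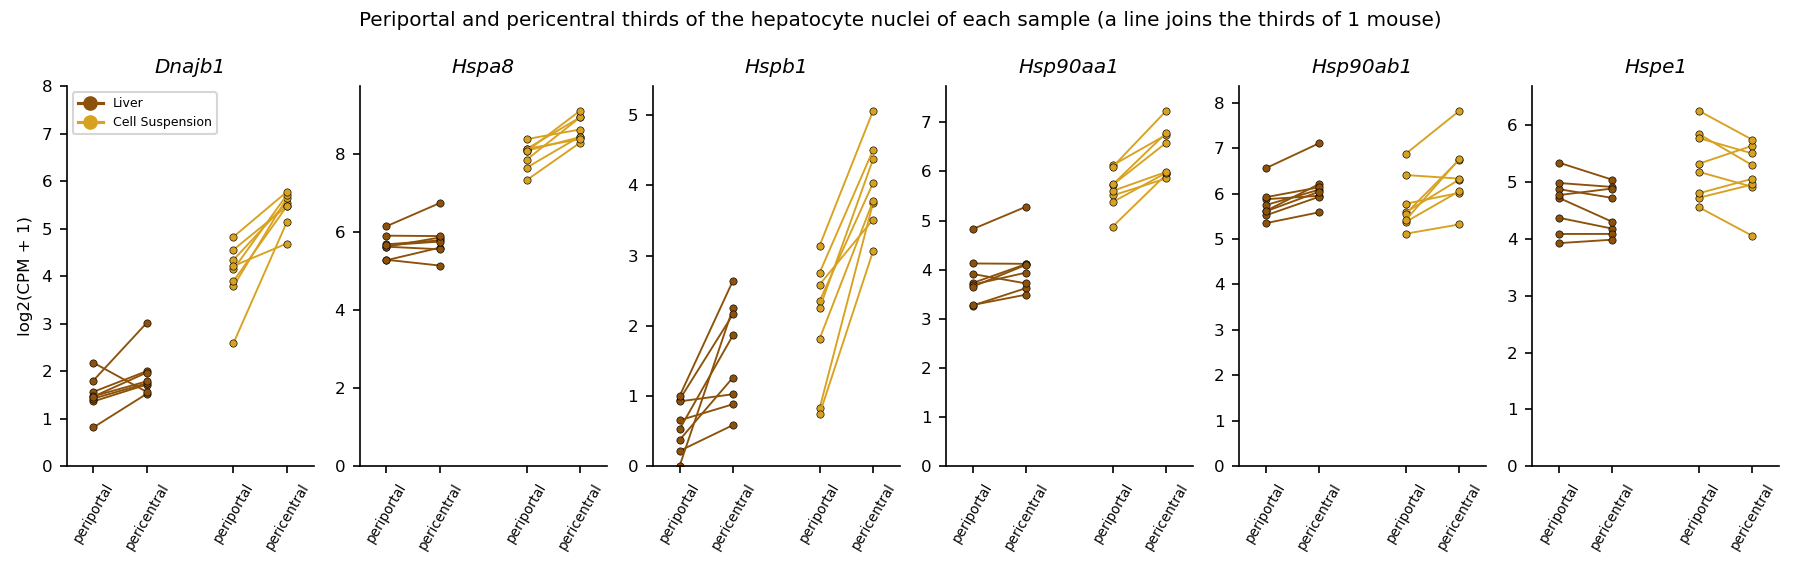
Levels in the pericentral and the periportal part of hepatocyte nuclei, with 1 line for each mouse, in Liver and Cell Suspension. In Cell Suspension the lines of Dnajb1 and Hspb1 go up toward the pericentral side in 8 of 8 mice, from medians of 17.1 to 44.5 and of 3.94 to 14 CPM.

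The wider chaperone network was read from 62 genes in 9 lists. On isolation 14 of them rose and 9 fell in hepatocyte nuclei, from Cell Suspension to Primary Hepatocytes 27 rose and 16 fell, and from Liver to Primary Hepatocytes 26 rose and 15 fell, all by the quasi-likelihood test of edgeR (Benjamini-Hochberg adjusted). The shares of all 26521 genes tested are those given above, 7.69% and 13.8% on isolation. They are larger among the 17120 genes kept by edgeR's expression filter, where 2637 rose and 3117 fell on isolation and 6371 rose and 5908 fell in culture. The list counts were not tested against either set. Hsf1, the factor itself, had median levels of 33.2, 27.8 and 28.7 CPM in the 3 types and did not pass in any comparison, with log2 fold changes of -0.18 (adjusted p = 0.215), 0.06 (adjusted p = 0.672) and -0.13 (adjusted p = 0.296). Of the 3 heat shock factor genes, none rose and 1 fell on isolation, and Hsf2 was lower by 1.2 in Primary Hepatocytes than in Liver (log2 fold change -1.2, adjusted p = 2.19e-09). Bag3 was at medians of 50.5, 47.9 and 74.3 CPM, with -0.08 (adjusted p = 0.809) on isolation and 0.42 (adjusted p = 0.0371) in culture. Among 4 other genes known as HSF1 targets, 3 rose and none fell on isolation, among them Ubb, a polyubiquitin gene, at 2.09 ± 0.25 (adjusted p = 2.57e-07). In culture Ubb was at 0.13 (adjusted p = 0.702).

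Partners of Hsp70 are listed beside the shares of all genes, 7.69% higher and 13.8% lower on isolation and 27.6% and 24% in culture. Of 8 J-domain genes, 2 rose and 3 fell on isolation and 5 rose and 2 fell in culture, and of 8 nucleotide exchange and regulator genes 1 rose and 1 fell, then 4 rose and 2 fell. Dnajc7 and Dnaja2 fell on isolation by 0.48 (adjusted p = 2.32e-04) and 0.46 (adjusted p = 2.69e-04) on the log2 scale, opposite to Dnajb1, in the quasi-likelihood test of edgeR (Benjamini-Hochberg adjusted). In culture Bag4 fell by 2.58 (adjusted p = 5.96e-14) and Dnajb4 by 2.21 (adjusted p = 1.57e-15) on the log2 scale. Of 5 other cytosolic Hsp70 and Hsp110 genes, 2 rose on isolation and 2 fell in culture. Of 5 other small heat shock protein genes, 1 rose on isolation, Hspb8 at 1.45 ± 0.15 (adjusted p = 1.08e-08), and then 1 rose and 1 fell.

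For partners of Hsp90 and subunits of the cytosolic chaperonin the shares of all genes are the same. Of 12 Hsp90 co-chaperone genes, 1 rose and 3 fell on isolation, with Stip1, which links Hsp70 to Hsp90, at -0.81 ± 0.24 (adjusted p = 0.0150) and Aarsd1 at -0.45 ± 0.10 (adjusted p = 0.00100) in the edgeR fit, and 6 rose and none fell in culture. Those included Fkbp5, a glucocorticoid-induced co-chaperone, at 1.32 ± 0.36 (adjusted p = 0.00265) and Cdc37, which brings kinases to Hsp90, at 1.01 ± 0.13 (adjusted p = 3.88e-08). Of the 8 TRiC subunit genes none rose and 1 fell on isolation, and 7 rose and 1 fell in culture, with Cct7 at 1.16 ± 0.13 (adjusted p = 3.89e-09) and Cct2 at 1.11 ± 0.12 (adjusted p = 4.41e-09). Of 9 chaperone genes of the endoplasmic reticulum and mitochondria, 4 rose and none fell on isolation, among them Hspa5 at 2.27 ± 0.40 (adjusted p = 7.07e-05), and 2 rose and 6 fell in culture, among them Hsp90b1, which fell by 2.13 on the log2 scale (adjusted p = 4.80e-12). From Liver to Primary Hepatocytes the largest rises in the lists were Ubb at 2.22, Lonp1 at 1.42, Hspa5 at 1.23 and Cct2 at 1.21, and the largest falls Bag4 at -2.34, Dnajb4 at -1.75, Hsp90b1 at -1.37 and Hsf2 at -1.2, each with adjusted p under the threshold of 0.05 in the edgeR fit and a mean of at least 10 CPM.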

How the data were processed

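Nuclei of 24 samples (8 mice, 3 sample types) were sequenced by the authors in 6 pools, after hashtags had marked each sample. The submitters' processing notes name bcl2fastq 2.19.0, Salmon alevin and GRCm38. The authors deposited matrices of raw UMI counts per barcode, with spliced, unspliced and ambiguous rows for each gene, and a table of nuclei with counts, sample, cluster and cell type labels. Groups were read from that table, and a hashtag named CD2 was read as Cell Suspension of mouse 2. The hashtag matrices were not used here.

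The 3 rows of a gene were added and summed per sample within each cell type for samples with at least 10 nuclei. Clusters that the deposited table labels only as cultured cells were assigned by marker lists, and cluster 8 (2321 nuclei, median UMIs 0.377 of those of their own sample) was left out. Of the 14833 hepatocyte nuclei of Primary Hepatocytes, 14760 lay in such clusters. In cluster 12, placed with endothelial cells, 1733 of 1761 nuclei were from Primary Hepatocytes. Within a cell type, cultured nuclei and those of the other types thus lay largely in separate clusters. The authors removed doublets marked by hashtags and those inferred with scDblFinder, and no further doublet caller was run. Genes that reached 10 counts in the sum of the samples were fitted in edgeR 4.0.16 (R 4.3.3) with TMM factors and the quasi-likelihood test, all 3 types together, two-sided, at an adjusted p of 0.05. Shares, cell type differences and lobule parts were tested per sample by exact permutation in Python 3.11.15 (scipy 1.17.1), Benjamini-Hochberg adjusted within each family, with a pseudocount of 1 on the log2 scale. All members are named. Of the lists, the 4 largest rises and falls of at least 10 CPM are named, with Hsf1 and Bag3 always, and the 5 genes most like Hspa1a plus Hspa1b. Members and lists were chosen with earlier results of these data known. The methods describe lobe and cells as taken from the same liver, and samples with the same number were read as 1 mouse, as the study's mouse numbers do. Deviations from the type means over 8601 genes had r of 0.352 to 0.850 between Liver and Cell Suspension of the same mouse, and of -0.147 to 0.114 between Cell Suspension and Primary Hepatocytes. DESeq2 1.42.0, other scalings, spliced or unspliced UMIs alone, thinning, pool, block and leave-one-out fits were the alternatives. The fit was tested on simulated data with 200 changed genes. Intervals and limits from counts of 0 (3 counts) cover counting error only. Levels are not per length and were not compared between genes. Reads of processed pseudogenes of Hspa8, Hspe1 and the Hsp90 genes could have been split by the counting, which was not tested. Of the list genes that the naming rule selects, 1 is not reported here.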

Additional observations from a re-analysis of the deposited data

Results flagged for a closer look

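Values that lay far from the others of their group, by Dixon's criterion at the 95% level, were looked for in 60 groups of 8 samples, and 15 were found. In 3 of these groups, those of Hspa1a in endothelial nuclei, 7 of 8 samples were at 0, so that any value above 0 was bound to be found. In the other 57 groups 12 were found. The criterion flags about 1 in 20 groups if they are independent and their values normally distributed. These groups share samples across genes and cell types, so an excess over chance cannot be read from the count. Of the 15, 11 belonged to mouse 8 and 3 to mouse 6. In hepatocyte nuclei of Liver, mouse 8 had 135 CPM of Hsph1 (next highest 19.5), 102 of Hspa8 (67.9), 36.5 of Hsp90aa1 (20.4), 124 of Hsp90ab1 (80.7) and 5.02 of Dnajb1 (2.59). In hepatocyte nuclei of Cell Suspension it had 219 CPM of Hsph1 (28.6) and 165 of Hsp90ab1 (85.3). In its endothelial nuclei Hsph1 was at 70.4 CPM in Liver (18.6) and 101 in Cell Suspension (20.2), and Hspa1a and Hspa1b were each at 4.58 CPM in Cell Suspension, from single UMIs. The Primary Hepatocytes sample of mouse 6 had 10.2 CPM of Hspa1a (2.02) and 15.3 of Hspa1b (2.79) in hepatocyte nuclei and 3.03 CPM of Hspa1a in endothelial nuclei, where the other samples had none. Hspa1a was found in endothelial nuclei of Liver in mouse 3 alone, at 0.418 CPM.

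Changes that differed between hepatocyte and endothelial nuclei in an exact permutation test were those of Hspa8 (0.97 from Liver to Cell Suspension and -1.44 from Cell Suspension to Primary Hepatocytes, as hepatocyte minus endothelial change in log2(CPM + 1)), Dnajb1 (1.73) and Hsp90ab1 (-0.70) from Liver to Cell Suspension, and Hspd1 from Cell Suspension (-1.08) and from Liver (-1.04) to Primary Hepatocytes. Paired by mouse, none of these passed after adjustment (lowest adjusted p = 0.0781, exact permutation test).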

How the results depend on the processing

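Of 675 values of member fold changes in hepatocyte nuclei under 23 alternatives, 634 kept their direction and side of the threshold, and of 297 in endothelial nuclei under 11, 282 did. No called value changed sign. With the mouse as a replicate block, 6 genes rose on isolation, 4 rose and 4 fell in culture, and 7 rose and 1 fell from Liver to Primary Hepatocytes, with Hsph1 added (1.10 and 1.65). From Liver to Cell Suspension, Hspa1b turned negative with the block (-0.053), without mouse 1 (-0.27, against 0.33 without mouse 8), with spliced UMIs alone (-0.26), with pool as a term (-0.22), thinned (-0.0499) and scaled to totals alone (-0.0359), and Hsp90ab1 with unspliced UMIs alone (-1.09), which made 1 member lower. From Cell Suspension to Primary Hepatocytes, Hspa1a turned negative with DESeq2 (-0.32), without mouse 6 (-0.38, against 2.00 without mouse 1) and without its cultured sample (-0.20), and Hspa1b without mouse 6 (-0.35, against 1.63 without mouse 1) and without that sample (-0.18). Hsph1 did so without mouse 1 (-0.07), without mouse 3 (-0.12, against 1.34 without mouse 8), with spliced UMIs alone (-0.0305) and without the CD2 sample (-0.0296). From Liver to Primary Hepatocytes, Hspa1b turned negative without mouse 6 (-0.23, against 1.63 and a call without mouse 4) and without its cultured sample (-0.0237), and Hspd1 positive scaled to totals alone (0.34). That scaling made 5 members higher from Cell Suspension to Primary Hepatocytes. In endothelial nuclei, leaving out each mouse gave -0.19 to 0.12 for Hsph1 on isolation and, for Hspe1, -0.34 to 0.31 in culture and -0.13 to 0.33 from Liver to Primary Hepatocytes. Cell type differences numbered 0 with the replicate block (paired by mouse), 9 scaled to totals alone and 10 with a pseudocount of 5, where that of Hspa1a on isolation was -0.0064. Scaled to totals alone, they were 0.19 for Hsph1, 0.004 for Dnajb1 and 0.0867 for Hsp90ab1 from Liver to Primary Hepatocytes, 0.10 for Hsp90aa1 in culture and -0.0704 for Hspd1 on isolation. Shares of nuclei with a UMI changed sign at 500 UMIs for Hspa1a on isolation (-0.0034 percentage points) and without thinning for Hspa1b from Liver to Primary Hepatocytes (-0.459), for Hspa8 (2.43) and Hspd1 (8.36) in culture, and on isolation for Hsph1 (-2.71), Hsp90ab1 (-12.9), Hspd1 (-7.89) and Hspe1 (-3.18). The causes were not tested. Alternatives without the cultured sample of mouse 6, with totals alone and with cluster 8 added, the pairing of cell type differences, and the lobule comparison between types, were chosen after seeing the data. No alternative was run for Kupffer and stellate nuclei, whose depth limits the genes that could be tested.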
